A study of Mus musculus with 4 samples.

Results

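A set of 9 genes that encode transcription factors of myeloid cells are described: Cebpa, Cebpb, Cebpd, Spi1, Maf, Klf2, Klf4, Mef2c and Lyl1. They were taken by gene, not by their signal: every probe whose RefSeq accession belongs to one of these 9 genes was used. This gave 10 probes of the 56605 on the array, 2 for Mef2c and 1 for each of the other genes, and 22905 named genes had a usable level in all. Expression was measured on 1-colour microarrays in thioglycollate-elicited peritoneal cells of mice, labelled as peritoneal macrophage and, in the titles, as PEC. The 4 groups were wild-type at 0 h, wild-type after 3 h with LPS (lipopolysaccharide, which activates Toll-like receptor 4), LysM-St18flox at 0 h and LysM-St18flox after 3 h with LPS. All mice had received 4% thioglycollate for 3 days, and all cells were kept in medium with 10% serum. LysM is the lysozyme promoter, which is active in macrophages and neutrophils, and a floxed allele carries loxP sites for Cre recombinase. The labels add no detail of the St18 allele, and the age, sex and strain of the mice are not given. Each group had 1 array, so no difference has a replicate check and no test was made. No array was of cells kept for 3 h without LPS. A difference between 0 h and 3 h, called the LPS response here, thus cannot be told apart from an effect of time in culture.

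The 9 factors belong to 6 families. C/EBP proteins (Cebpa, Cebpb, Cebpd) are leucine zipper factors that bind the same DNA site as homo- or heterodimers. C/EBP-alpha is needed for the step from myeloid progenitors to granulocytes and monocytes, and C/EBP-beta and C/EBP-delta are known as factors of the acute-phase and macrophage response to bacterial products. PU.1, the ETS factor encoded by Spi1, opens enhancers of the macrophage lineage. The large Maf factor c-MAF (Maf), the Krueppel-like zinc finger factors KLF2 and KLF4, the MADS box factor MEF2C and the basic helix-loop-helix factor LYL1, a relative of TAL1, all act in differentiation or in the resting state of myeloid cells.

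The labels were checked against cell type markers and St18. All 11 macrophage markers with a probe were well above background on each array. St18 was well above background by 1 of its 2 probes in both wild-type arrays and by neither probe in the LysM-St18flox arrays. That probe gave LysM-St18flox levels lower by at least 7.07-fold (0 h) and 8.48-fold (3 h). The sources do not say whether the probe lies in the deleted part. The wild-type 0 h array stood apart from the others. Among 4217 genes with 2 measured probes, the gap between these probes on that array departed from its mean on the other arrays by a median of 0.39 (log2), against 0.17 to 0.22 on the other 3. Of 12344 genes measured on all arrays, 4.62% stood alone there, at least 0.8 (log2) above or below every other array, against 0.778% to 1.57% on each of the other 3. Markers of large peritoneal macrophages and of other cells also moved with genotype. Those of large peritoneal macrophages had medians of 0.68 at 0 h and 0.54 at 3 h (log2, LysM-St18flox minus wild-type). Past 2-fold were 5 of 14 upward and 0 downward at 0 h, and 4 of 15 and 0 at 3 h. The macrophage markers had medians of -0.28 and -0.09 in the same comparisons. The summed level of 12 B cell markers was 6.52 and 4.89 in the wild-type arrays (0 h and 3 h) and 26.7 and 21.3 in the LysM-St18flox arrays, in units of each array's 75th percentile signal. Erythroid markers went from 11.2 and 9.69 to 82.7 and 96.6, and eosinophil markers had medians of 1.12 (0 h) and 0.81 (3 h; log2, LysM-St18flox minus wild-type). Mesothelial and fibroblast markers were lower in LysM-St18flox cells, past 2-fold for 7 of 9 at 0 h and 9 of 9 at 3 h (medians -1.26 and -1.55). The neutrophil markers were mixed. Of them 5 of 12 and 4 of 11 were lower by that much (S100a9 by -2.25 and -2.74). At each time 4 others were above 0, but only Retnlg was so at both times (0.81 and 1.11). The summed level of the neutrophil markers hardly differed between genotypes at 0 h and was lower in LysM-St18flox cells at 3 h. The 0 h sums hold opposite moves, with Csf3r at 0.69 and S100a8 at -1.73. Csf3r had a level of 6.33 on the wild-type 0 h array and of 7.02 to 7.09 on the other 3. The like sums thus do not show that neutrophil content was alike. The part of these cells in the values of the 9 genes was not tested.

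Promoter windows are shown for 4 genes that differed after LPS, 3 of them lower and 1 higher. They hold 250 bases before and 50 after the annotated start, from RefSeq on GRCm38.p6, and were given for 6 of the 9 genes (Cebpa, Cebpb, Klf2, Klf4, Lyl1 and Mef2c, the last with 3 windows). Cebpa lies at chr7:35119043-35119342 (+ strand), Lyl1 at chr8:84701207-84701506 (+), Klf4 at chr4:55532426-55532725 (-) and Cebpb at chr2:167688665-167688964 (+). Cebpa, Lyl1 and Klf4 were lower after LPS and Cebpb was higher. Each window is printed 5' to 3' along its gene, and capitals mark matches to the motifs named after them.
Cebpa: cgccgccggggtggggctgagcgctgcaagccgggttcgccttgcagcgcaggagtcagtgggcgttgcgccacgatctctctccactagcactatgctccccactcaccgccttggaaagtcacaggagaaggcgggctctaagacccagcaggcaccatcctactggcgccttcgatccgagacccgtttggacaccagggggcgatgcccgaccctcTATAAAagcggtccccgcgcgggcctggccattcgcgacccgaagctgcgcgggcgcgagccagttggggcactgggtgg
Lyl1: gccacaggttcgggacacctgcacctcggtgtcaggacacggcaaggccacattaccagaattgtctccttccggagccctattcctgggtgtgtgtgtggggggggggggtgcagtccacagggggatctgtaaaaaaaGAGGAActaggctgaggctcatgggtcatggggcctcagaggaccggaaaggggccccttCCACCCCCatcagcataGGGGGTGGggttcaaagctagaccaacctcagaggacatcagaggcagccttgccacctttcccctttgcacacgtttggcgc
Klf4: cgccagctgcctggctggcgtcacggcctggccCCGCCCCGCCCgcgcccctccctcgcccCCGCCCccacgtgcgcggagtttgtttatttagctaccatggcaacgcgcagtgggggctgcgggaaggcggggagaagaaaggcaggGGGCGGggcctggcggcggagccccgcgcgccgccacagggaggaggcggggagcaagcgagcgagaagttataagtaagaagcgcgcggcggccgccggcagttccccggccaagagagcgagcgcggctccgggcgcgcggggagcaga
Cebpb: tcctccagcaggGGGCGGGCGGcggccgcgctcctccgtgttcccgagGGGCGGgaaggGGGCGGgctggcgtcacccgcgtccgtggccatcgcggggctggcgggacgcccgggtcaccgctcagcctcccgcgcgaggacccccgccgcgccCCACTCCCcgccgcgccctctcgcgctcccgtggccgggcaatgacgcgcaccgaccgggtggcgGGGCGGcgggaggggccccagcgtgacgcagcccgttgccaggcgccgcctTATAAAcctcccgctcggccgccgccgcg

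Motifs were searched on both strands. The GC box GGGCGG, a site of SP and KLF proteins, had 5 matches in the Cebpb window, 4 in Klf4 and 2 in Klf2, 1 in a Mef2c window, none in Cebpa or Lyl1, and occurs in 35.7% of all 32851 windows. The motif GGGNGTGG, of the same proteins, had 2 matches in Lyl1 and 1 in Cebpb (17.6% of all windows). TATAAA, the TATA box motif, began at position -30 in Cebpa and at position 22, past the start, in Cebpb, counted from 1 at the start. It also occurred once, on the opposite strand, in each of 2 Mef2c windows (13.6% of all windows). GAGGAA, an ETS core bound by PU.1, was found at position -110 in Lyl1 and in 2 Mef2c windows (28.3%). The NF-kB motifs, GGG and TTTCC with 2 bases between (1.63% of all windows) and GGGA and TCC with 3 bases between (4.59%), had no match in any of the 8 windows of these genes. The same held for the C/EBP motif TTGCNNAA (10.8%), whose reverse complement is TTNNGCAA, for the CRE motif TGACGT (7.51%) and for the ISRE motif, GAAA repeated after 2 bases (3.44%). The AP-1 motif TGANTCA was found once, in a Mef2c window (7.81%), and CCAAT in the other 2 Mef2c windows (37.4%). GC content was 80.7% for Cebpb, 74.3% for Klf4, 69.3% for Klf2, 67.3% for Cebpa and 60.0% for Lyl1, against a median of 52.7% over all windows. The Mef2c windows were at 35.7%, 47.0% and 48.3%.

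After 3 h of LPS the 3 C/EBP genes went different ways. Cebpa was more than 14-fold lower in both genotypes, Cebpd was more than 5-fold higher in both, and Cebpb was about 2-fold higher. Levels below are log2 processed signals minus the 75th percentile of the array, so 0 is the signal that marks the upper end of 75% of the spots, and levels of different genes are not compared because probes differ in brightness. Probes printed 10 times gave a median standard deviation of 0.03 to 0.04 within an array. For a difference between single spots, 2 standard deviations came to at most 0.12, which covers spot error only.

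Cebpa had a level of 4.03 at 0 h and 0.18 at 3 h in wild-type cells, and of 3.90 and -0.20 in LysM-St18flox cells. Both unstimulated arrays were high and both stimulated arrays low, with a gap of 3.72 between them. The difference after LPS was -3.85 in wild-type cells (14.4-fold lower) and -4.10 in LysM-St18flox cells (17.2-fold lower). Ordered from the lowest value, Cebpa ranked 11 of 12587 measured genes in wild-type cells and 4 of 12975 in LysM-St18flox cells. The raw signal went from 10999 to 857 and from 15978 to 769, so that the stimulated arrays still measured it well above background.

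Cebpd stood at 2.33 (wild-type 0 h), 5.54 (wild-type 3 h), 2.89 (LysM-St18flox 0 h) and 5.23 (LysM-St18flox 3 h). Its stimulated arrays lay 2.33 or more above its unstimulated ones, the reverse of Cebpa. The gene was 9.29-fold higher after LPS in wild-type cells (3.22) and 5.03-fold higher in LysM-St18flox cells (2.33), at ranks 155 and 293 among higher genes.

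Cebpb was at 5.47 and 6.50 in wild-type cells (0 h, then 3 h) and at 5.20 and 6.09 in LysM-St18flox cells. Both stimulated levels were above both unstimulated levels, by at least 0.62. Its difference of 1.03 in wild-type cells (2.04-fold) lay just past 2-fold and the 0.89 in LysM-St18flox cells (1.85-fold) just short of it. Over the alternative settings these ranged from 0.85 to 1.12 and from 0.60 to 1.12. No spot of any array was saturated.

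Spi1, the PU.1 gene, was at -0.13 on the wild-type 0 h array and between 0.71 and 1.33 on the other 3, with 1.33 in stimulated wild-type cells and 0.71 and then 1.05 in LysM-St18flox cells. Only the wild-type 0 h array stood low. The gene was thus 2.76-fold higher after LPS in wild-type cells (1.46) and 1.27-fold higher in LysM-St18flox cells (0.34). This larger value rests on the array whose probes disagreed most, and the part of that array in it was not tested.

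**Figure D1:**
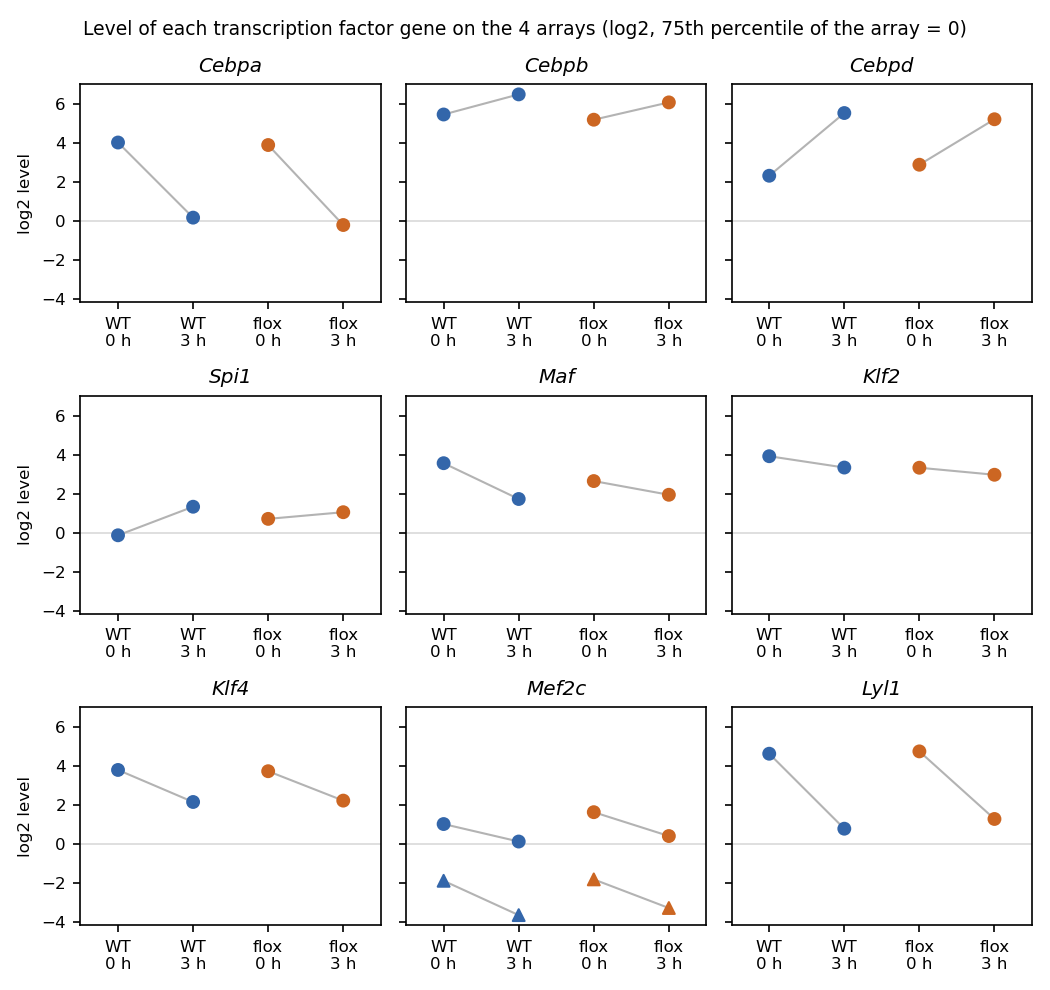
Level of each gene on the 4 arrays (y axis, log2 processed signal with the 75th percentile of the array at 0) for wild-type (WT, blue) and LysM-St18flox (flox, orange) cells at 0 h and 3 h. Points are single arrays with no error bar, lines join 0 h to 3 h of a genotype, and triangles are the second Mef2c probe; Cebpa and Lyl1 end near 0 to 1.3 from about 4 to 4.8, while Cebpd ends above 5.

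Lyl1 had the other deep drop in level. Its level was 4.64 before and 0.79 after LPS in wild-type cells, while LysM-St18flox cells had 4.76 and 1.29. The 2 unstimulated arrays differed by 0.12 and lay 3.35 or more above the stimulated ones. It was 14.4-fold lower in stimulated wild-type cells (-3.84, rank 12), and its difference in LysM-St18flox cells was -3.47 (rank 17). Of the members, Cebpa had the 4-array pattern nearest to that of Lyl1, at a distance of 0.72 (Euclidean, on centred log2 levels).

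The KLF genes differed from each other. Klf4, which promotes monocyte differentiation, was at 3.81 and 2.16 in wild-type cells and at 3.74 and 2.23 in LysM-St18flox cells. The genotypes differed by -0.06 at 0 h and 0.07 at 3 h, and by -0.20 to 0.01 at 0 h over the alternative settings. The gene was 3.12-fold lower in stimulated wild-type cells (-1.64) and 2.84-fold lower in LysM-St18flox cells (-1.51). Klf2, known to restrain inflammatory activation of monocytes and macrophages, was at 3.92 and 3.34 in wild-type cells and at 3.33 and 2.97 in LysM-St18flox cells. Its LPS difference was -0.58 in the former and -0.36 in the latter, and neither value reached 2-fold. The stimulated wild-type level and the unstimulated LysM-St18flox level of Klf2 were only 0.01 apart.

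Maf was at 3.56 before and 1.73 after LPS in wild-type cells, and at 2.65 and 1.94 in LysM-St18flox cells. The wild-type 0 h array again stood alone, here above the others. The gene was 3.57-fold lower in stimulated wild-type cells (-1.84) and 1.63-fold lower in LysM-St18flox cells (-0.70).

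Mef2c was lower after LPS by both probes in both genotypes. Its brighter probe was at 1.03 and 0.14 in wild-type cells and at 1.64 and 0.42 in LysM-St18flox cells, which made -0.90 (1.86-fold lower) and -1.22 (2.34-fold lower). The dimmer probe, from another accession, was at -1.88 and -3.64 and at -1.81 and -3.27, which made -1.76 (3.39-fold lower) and -1.47 (2.77-fold lower). The probes thus placed the wild-type value on opposite sides of 2-fold.

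By the brightest probe, 7 of 9 genes passed 2-fold after LPS in wild-type cells, 3 upward (Cebpb, Cebpd, Spi1) and 4 downward (Cebpa, Maf, Klf4, Lyl1). Of all 12587 measured genes 20.7% passed it, 9.04% upward and 11.6% downward. With quantile normalization, with the percentile over detected probes and in the deposited log2 values, the split among these genes was 2 and 4, and with the mean of all measured probes it was 3 and 5, with Mef2c at -1.33. In LysM-St18flox cells 1 of 9 was higher (Cebpd) and 4 lower (Cebpa, Klf4, Mef2c, Lyl1), against 8.12% and 8.97% of 12975 genes (17.1% in either direction), and the split was 2 and 3 when each array was centred on its median. The median difference of the 9 genes was -0.90 in wild-type and -0.70 in LysM-St18flox cells, against -0.11 and -0.09 over all measured genes. In a mixed population such as this, fewer cells of a type and less RNA per cell cannot be told apart. The macrophage markers had medians of 0.05 and 0.08 in these comparisons. Above 0 were 6 of 11 for the wild-type and 7 of 11 for the LysM-St18flox response. These medians hold opposite moves. The wild-type response passed 2-fold upward for 3 of the 11 markers and downward for 2. For the LysM-St18flox response the counts were 2 upward and 1 downward. Cx3cr1 was at -1.72 (wild-type) and -1.85 (LysM-St18flox), while Msr1 was at 1.61 and 1.84. Whether macrophage content changed was not tested.

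**Figure D2:**
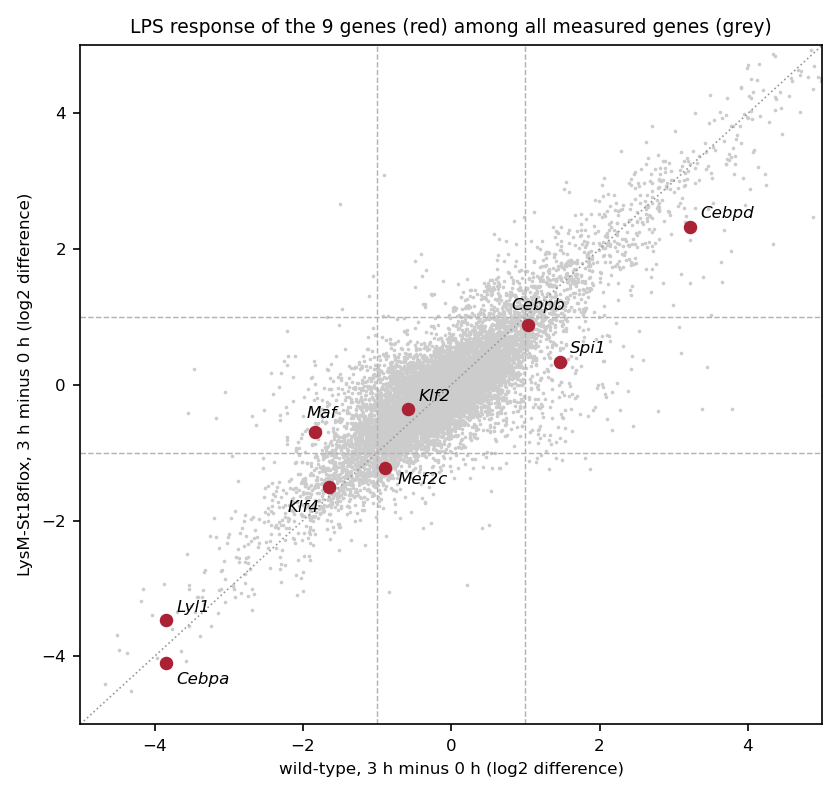
Log2 difference after 3 h of LPS in wild-type (x axis) and LysM-St18flox cells (y axis), with the 9 genes in red and all genes measured on 4 arrays in grey (genes beyond the axes are not drawn). Dashed lines mark 2-fold and the dotted line equal responses; Cebpa and Lyl1 lie at the lower end, Cebpd at 3.22 and 2.33, and Spi1 and Maf off the dotted line.

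Between genotypes none of the 9 genes was 2-fold apart at either time. At 0 h 6.07% of 12676 measured genes were that far apart, 3.04% upward in LysM-St18flox cells and 3.03% downward. At 3 h it was 3.22% of 13048, 1.82% upward and 1.40% downward. The differences (LysM-St18flox minus wild-type) ran from -0.92 to 0.84 at 0 h, with 4 genes above 0 and 5 below, and from -0.41 to 0.50 at 3 h, again with 4 above and 5 below. With single arrays, values under 2-fold do not show that the genotypes were alike.

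At 0 h the largest values were those of Maf (-0.92, 1.89-fold lower in LysM-St18flox cells) and Spi1 (0.84, 1.79-fold higher). Mef2c followed at 0.61, Klf2 at -0.59 and Cebpd at 0.57. Smaller values were found for Cebpb (-0.27), Cebpa (-0.13), Lyl1 (0.12) and Klf4 (-0.06). Centred on array medians, Maf was at -1.05 and passed 2-fold. The second Mef2c probe differed by 0.07 at 0 h.

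At 3 h, a comparison without the wild-type 0 h array, Maf was at 0.22, Spi1 at -0.28 and Cebpd at -0.32, each on the other side of 0 from its value at 0 h. Lyl1 had the highest value (0.50, 1.41-fold) and Cebpb the lowest (-0.41, 1.33-fold lower). Cebpa was at -0.38, Klf2 at -0.37, Mef2c at 0.28 (0.36 by its second probe) and Klf4 at 0.07. Mef2c, which B cells also express, was above 0 at both times beside the B cell markers, of which 7 of 9 measured passed 2-fold upward at 0 h (median 2.36) and 6 of 9 at 3 h (median 2.48). All 12 B cell markers were well above background in LysM-St18flox cells and 9 in wild-type cells, and the part of B cells in the Mef2c value was not tested. T and NK cell markers had medians of 1.03 and 0.72 in the same comparisons and were less uniform. Past 2-fold were 5 of 9 upward and 1 downward (Cd4, -1.04) at 0 h, and 5 of 11 and 0 at 3 h. The part of T and NK cells in the values of the 9 genes was not tested.

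**Figure D3:**
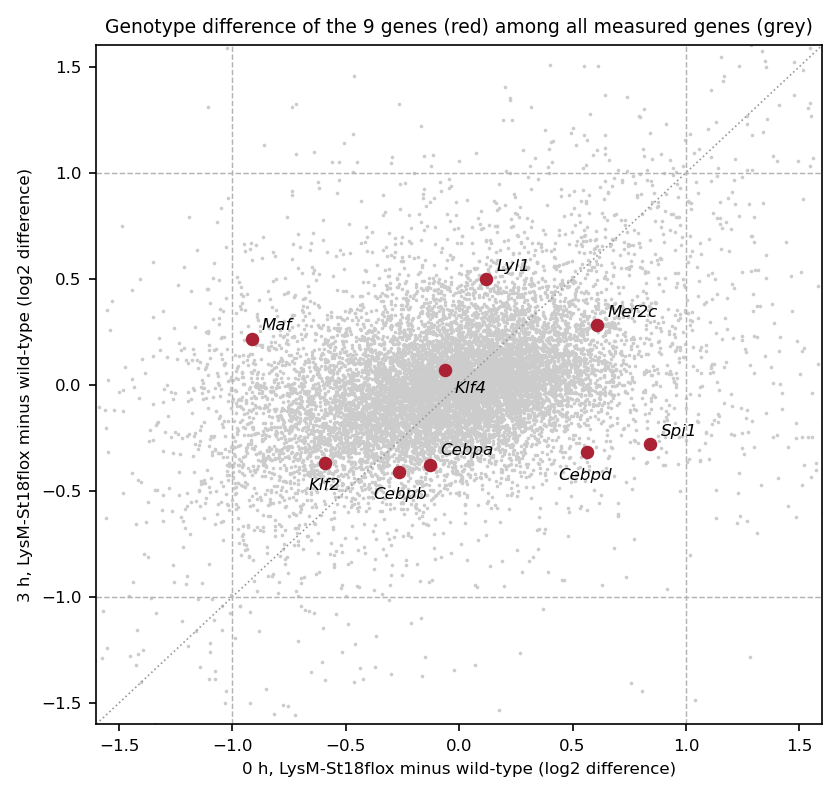
Log2 difference between genotypes (LysM-St18flox minus wild-type) at 0 h (x axis) and at 3 h (y axis), with the 9 genes in red and all genes measured on 4 arrays in grey (genes beyond the axes are not drawn). Dashed lines mark 2-fold, and all 9 genes lie inside them, with Maf at -0.92 and Spi1 at 0.84 on the x axis.

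The LPS response itself differed between genotypes by at least 2-fold for 2 of 9 genes, Spi1 (-1.12, LysM-St18flox minus wild-type response) and Maf (1.13). Of 12344 genes, 5.31% differed by that much, 2.90% upward and 2.41% downward. Cebpd came next at -0.88, and the other 6 genes were between -0.33 (Mef2c) and 0.38 (Lyl1). In each of Spi1, Maf and Cebpd the 0 h levels were farther apart between genotypes than the 3 h levels. For scale, 2 probes of one gene disagreed with a standard deviation per probe of 0.46 in this quantity, 0.53 in the wild-type LPS response and 0.34 in the LysM-St18flox response.

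Other genes of these families were read from lists. In the C/EBP and ETS list, 2 of 15 measured genes passed 2-fold upward after LPS in wild-type cells and 4 downward (Cebpg, Ddit3, Elf2, Fli1), and 3 (with Elk3) and 1 of 16 in LysM-St18flox cells. Ets2 (2.39 in wild-type, 2.06 in LysM-St18flox cells) and the ETS repressor gene Etv3 (2.28, 1.71) were higher in both. Ddit3, which encodes the C/EBP-homologous protein CHOP, was lower in both (-1.30, -1.59). Cebpe was at -0.69 and -0.85 and Cebpg at -1.09 and -0.90. Spib, the PU.1 relative of B cells, was 5.08-fold higher in LysM-St18flox cells at 0 h and 4.60-fold at 3 h, beside the B cell markers given above, and Ets1, a lymphocyte ETS gene, 2.55-fold and 2.82-fold.

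In the KLF, MEF2 and MAF list, 3 of 14 measured genes passed 2-fold upward and 4 downward after LPS in wild-type cells, and 4 and 3 of 15 in LysM-St18flox cells. None was 2-fold apart between genotypes at either time. The small Maf gene Maff was higher (2.03, 2.95), as was Klf7 (1.72, 1.39). Klf9 (-1.64, -1.44), Klf10 (-1.25, -1.29) and Klf16 (-1.37, -1.13) were lower, as Klf4 was, and Mef2a was at -0.96 and -0.88.

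Among genes of LYL1 complexes and related haematopoietic factors, 1 of 19 passed 2-fold upward and 7 downward after LPS in wild-type cells, and 1 and 4 of 20 in LysM-St18flox cells (median -0.56 in both). Cbfa2t3, a co-repressor found in complexes of TAL1 and LYL1, was 4.56-fold and 4.34-fold lower. The LIM domain bridging gene Lmo2 was at -1.11 and -0.78 and the E protein genes Tcf3 at -1.31 and -0.65 and Tcf12 at -1.26 and -0.47, while Tcf4 was at 0.87 and 0.98. Lmo4 was higher in both (1.54, 1.11). Tal1 itself was at -0.63 and -0.04. Gata3 (1.77 at 0 h, 1.22 at 3 h) and Gata1 (1.34, 1.19) were higher in LysM-St18flox cells, beside T and NK cell markers (above), mast cell markers (medians 0.98 and 1.51) and erythroid markers (2.96 and 3.28); the part of these cells was not tested.

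Of other regulators of the macrophage lineage, 5 of 28 passed 2-fold upward and 7 downward after LPS in wild-type cells, and 7 and 5 of 29 in LysM-St18flox cells. Tfeb, a lysosomal regulator, was 11.6-fold and 8.02-fold lower, the lipid receptor gene Pparg 4.88-fold and 3.99-fold, Bhlhe40 4.23-fold and 3.26-fold, and Rxra 2.93-fold and 3.05-fold. Tfec was 4.15-fold and 8.29-fold higher, Jdp2 3.57-fold and 4.24-fold, Ikzf1 2.90-fold and 3.35-fold, and Bach1 2.17-fold and 2.31-fold. Irf8, which directs monocyte development, was at -1.60 in wild-type and 0.05 in LysM-St18flox cells, and 2.27-fold higher in the latter at 3 h. Its level was 3.23 on the wild-type 3 h array and 4.36 to 4.83 on the others, so the -1.60 and the 2.27-fold value rest on that array.

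**Figure D4:**
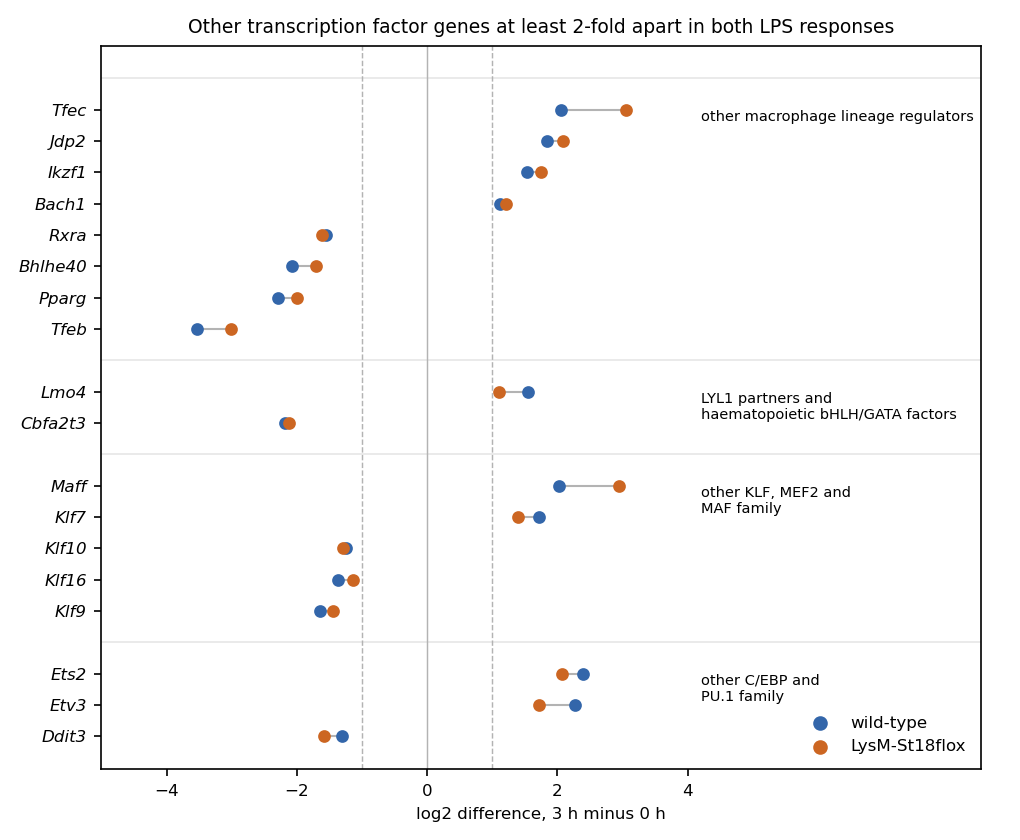
Log2 difference after 3 h of LPS (x axis) in wild-type (blue) and LysM-St18flox cells (orange) for other transcription factor genes at least 2-fold apart in both (up to 4 per list and direction). Dashed lines mark 2-fold, and Tfeb has the lowest values, 11.6-fold and 8.02-fold lower.

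In the list of PU.1 and C/EBP targets, 5 of 26 measured genes passed 2-fold upward and 0 downward after LPS in wild-type cells (median 0.22), and 4 and 0 of 27 in LysM-St18flox cells (median 0.06). Csf1r, the macrophage growth factor receptor, was at -0.11 and -0.17, Tyrobp at -0.29 and 0.10 and Itgam at -0.64 and -0.47, beside -3.85 and -4.10 for Cebpa itself. Il1b (7.49, 7.73), Msr1 (1.61, 1.84), Cd14 (1.39, 1.89) and Cybb (1.15, 1.35) were higher. Il6, a C/EBP-beta target, was not well above background at 0 h and was at least 573-fold higher after LPS in wild-type and at least 645-fold in LysM-St18flox cells. Such a bound divides the bright level by the dim one, or by the weakest level called well above background on that array where this is higher. Lyz2 was 2.29-fold higher in LysM-St18flox cells at 0 h and differed by -0.23 at 3 h. Its level was 4.83 on the wild-type 0 h array and 6.03 to 6.30 on the other 3, so the 0 h value rests on that array.

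In the list of KLF2, KLF4, c-MAF and MEF2C targets, 3 of 22 were higher and 4 lower in wild-type cells, and 5 and 5 of 23 in LysM-St18flox cells. Thrombomodulin (Thbd), a KLF2 and KLF4 target, was 11.6-fold and 11.8-fold lower, Jun, a MEF2C target, 6.71-fold and 5.11-fold, and the KLF2 target S1pr1 4.41-fold and 3.64-fold. Tissue factor (F3), which KLF2 represses, was 6.91-fold and 6.23-fold higher. The c-MAF targets C1qa (-0.03, 0.03), C1qb (0.29, 0.16) and C1qc (-0.34, -0.09) stayed under 2-fold, while Il10 was higher by at least 129-fold in wild-type cells and by 6.01 (log2) in LysM-St18flox cells. Regulators of C/EBP had 0 of 18 genes higher and 3 lower in wild-type cells (Fbxw7 -1.19, Id1 -1.30, Id2 -1.43) and 0 and 0 of 18 in LysM-St18flox cells, with Trib1, which directs C/EBP-alpha to degradation, at -0.08 and -0.27.

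The nearest patterns over the 4 arrays were sought among 11593 other named genes. For Klf4 the second nearest was its relative Klf9, at a distance of 0.06, after Ing4 (0.04). The nearest to Cebpa were Bmf (0.32) and Fhdc1 (0.35), and those to Lyl1 were Fbxo31 (0.15) and Gpr146 (0.24). Spi1 lay nearest to Ddx6 (0.10) and Cct3 (0.14), both also lowest at wild-type 0 h, and Maf nearest to C2cd3 (0.12) and Glyctk (0.16), both also highest there. For Cebpd they were Mllt6 (0.12) and Rhou (0.25), for Cebpb Prkar2b (0.02) and Rab15 (0.08), for Mef2c Cep95 (0.07) and Smpd3 (0.10), and for Klf2 Rnaseh2a (0.0088) and Pot1b (0.03). With 4 arrays such likeness is a description only.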

How the data were processed

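Total RNA (100 ng) was labelled with Cy3, per the labels' protocols, and hybridised to 1-colour Agilent arrays, 1 for each of 4 samples. The deposited spot intensity is the processed signal, per the file headers, which name Agilent Feature Extraction 11.0.1.1: background was subtracted and spatial trends were removed, with no normalization between arrays. The deposited value table holds log2 values of 25482 probes, with normalization and filter not stated. Each column had a correlation of 0.99994 or more with its array's own log2 signal and a median of 9.58.

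From the intensities, control spots and outlier spots were left out, repeated spots were averaged as log2 values, and the array's 75th percentile over its 59305 spots was subtracted (signals of 672 to 1067). Between 52.2% and 55.6% of spots were well above background and none was saturated. Names came from RefSeq accessions (GRCm38.p6 gene table, 32994 probes with 1 symbol). The headers name another build, so coordinates are given only for RefSeq promoter windows. A gene was read from its brightest probe and counted where both arrays of a comparison were well above background. The counts use a 2-fold threshold. Named genes were the 9 members with all probes, up to 4 genes per list and direction past 2-fold in both LPS responses, up to 2 per list for each genotype difference, and the 2 nearest patterns per member. Further list genes were named for their known role after their values were seen. The members, 7 family lists and 10 marker lists were chosen with earlier results of these data known. A gene of these lists is not reported here and was left out of their counts. The calculation was tested on simulated data with 200 changed genes. The 8 alternatives were normexp correction (limma 3.58.1, offset 50, on median signals), quantile normalization, array medians, the percentile over detected probes, no background filter, a 4-fold stricter filter, the mean of all probes and the deposited table. Python 3.11.15 was used.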

Additional observations from a re-analysis of the deposited data

Results flagged for a closer look

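A set of 3 genes had genotype differences of opposite sign at 0 h and at 3 h. The change from 0 h to 3 h was -1.12 for Spi1, from 0.84 to -0.28. It was 1.13 for Maf, from -0.92 to 0.22, and -0.88 for Cebpd, from 0.57 to -0.32. At 3 h the standard deviation between probes of a gene was 0.23 for a genotype difference, so the Maf value lies within it and the other two lie little beyond it. These differences were not tested, since each group had 1 array. For each of these genes the wild-type arrays (0 h and 3 h) held the lowest and the highest level of the 4. This order follows from the opposite signs together with LPS responses of 1 direction in both genotypes.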

How the results depend on the processing

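Each of 45 member values (9 genes in 4 comparisons and in the difference of LPS responses) was recomputed under 8 alternatives. Of the 360 values, 360 stayed within the standard deviation between probes of a gene. In 0 of them did a difference past 2-fold change its sign, though some crossed the 2-fold line (below). Part of them could not move. Both changes of the background filter left every member value as it was, since all members passed each filter. The mean of all probes could change only Mef2c, the only gene here with more than 1 probe. Of the 45 values, 42 kept 1 sign throughout. The exceptions were near 0: the genotype differences at 0 h of Klf4 (-0.20 to 0.01) and Lyl1 (-0.02 to 0.18), and the difference of LPS responses of Cebpb (-0.25 to 0.0003). In 6 of the 45 the range crossed 2-fold: the LPS responses of Cebpb and of Mef2c in both genotypes, Maf at 0 h and the Spi1 difference of responses. Mef2c ranged from -1.33 to -0.77 in wild-type and from -1.35 to -0.99 in LysM-St18flox cells. The count of genes with a 2-fold difference of responses was 2, and 1 with normexp correction and with array medians, where Spi1 was the gene lost (-0.96 at its weakest). With array medians 1 gene, Maf, was 2-fold apart between genotypes at 0 h, against 0. That centring moved the median of all genes in the LysM-St18flox response from -0.09 to 0.14; the cause was not tested. No paired analysis was possible because each group has 1 array and the labels give no replicate numbers. For the same reason no array could be left out within a group.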
